A study of Mus musculus with 10 samples.

Results

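The SLAM receptors and SAP were followed across thymic invariant natural killer T (iNKT) cells with and without Id3. The genes are Slamf1, Slamf6, Slamf7, Ly9, Cd84, Cd48 and Cd244a, which encode receptors of the SLAM family, and Sh2d1a, which encodes the adaptor SAP. The members were listed by name, and every probe set that the array's annotation gives to them was taken: 14 of 45037 probe sets on the array, for 8 of 18193 genes. Of these 14, 10 probe sets of 7 genes were bright enough to be tested, against 25061 probe sets over the whole array. A probe set was tested when its intensity lay above 55.1, the median of the whole table (5.78 on the log2 scale), on at least 2 arrays. Cd244a had no tested probe set.

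The cells came from thymi of 6-week-old C57BL/6 mice, either Id3KO animals, which lack Id3, an inhibitor of the E protein transcription factors, or WT animals. Tetramer-binding cells negative for CD24 and NK1.1 were sorted into stage 1, negative for CD44, and stage 2, positive for CD44. The groups were Id3KO stage 1 (2 arrays), WT stage 1 (2 arrays), Id3KO stage 2 (3 arrays) and WT stage 2 (3 arrays). The labels call the replicates biological, do not say how many animals went into each, and do not give the cells in which Id3 was deleted.

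SLAM receptors are surface proteins of blood cells, most of which bind a copy of themselves on a neighbouring cell, while CD244 binds CD48. The cytoplasmic tails of most of these receptors recruit SAP, a small SH2 domain adaptor that couples them to the kinase Fyn. Unlike most T cells, iNKT cells are selected by other thymocytes, and in mice SLAMF1 and SLAMF6 contacts and SAP are required for this selection and for the expansion that follows.

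The 7 receptor genes lie side by side on mouse chromosome 1, in the order Cd244a, Ly9, Slamf7, Cd48, Slamf1, Cd84 and Slamf6, with 8 other annotated genes between them, of which 1 is listed as protein-coding. Sh2d1a is on the X chromosome. The promoters of Slamf6, Cd84 and Cd48 are shown because, averaged over the stages, these members differed most between the genotypes, and because E proteins, which Id3 restrains, bind the E box CANNTG. Each window runs from 250 bases before to 50 bases after the RefSeq gene start in build GRCm38.p6, all on the plus strand, and capitals mark E boxes.
Slamf6 (chr1:171917212-171917511): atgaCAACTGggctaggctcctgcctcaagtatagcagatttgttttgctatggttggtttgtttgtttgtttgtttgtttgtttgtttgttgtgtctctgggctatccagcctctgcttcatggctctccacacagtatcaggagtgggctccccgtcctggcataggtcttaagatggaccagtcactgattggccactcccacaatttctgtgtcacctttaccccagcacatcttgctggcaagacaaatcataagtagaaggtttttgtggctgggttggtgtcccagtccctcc
Cd84 (chr1:171839447-171839746): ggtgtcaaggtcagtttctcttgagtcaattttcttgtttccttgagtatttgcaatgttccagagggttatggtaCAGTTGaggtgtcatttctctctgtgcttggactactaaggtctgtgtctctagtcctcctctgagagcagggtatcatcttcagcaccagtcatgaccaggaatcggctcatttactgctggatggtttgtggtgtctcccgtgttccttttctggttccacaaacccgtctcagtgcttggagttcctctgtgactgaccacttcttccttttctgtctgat
Cd48 (chr1:171681742-171682041): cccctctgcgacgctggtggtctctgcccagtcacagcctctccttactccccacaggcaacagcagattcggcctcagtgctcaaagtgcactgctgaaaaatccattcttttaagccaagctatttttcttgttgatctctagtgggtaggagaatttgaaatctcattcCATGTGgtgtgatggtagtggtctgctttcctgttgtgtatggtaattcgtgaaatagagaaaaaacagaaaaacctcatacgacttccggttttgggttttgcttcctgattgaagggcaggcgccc
Each of these 3 windows held 1 E box. Its first base lay at -246 from the start in Slamf6, at -174 in Cd84 and at -78 in Cd48. The motif reads the same on both strands, and 72.3% of 32851 promoter windows of this length held at least 1. Promoters of 6 of the 8 members were found in the table, and Cd244a held 3 E boxes, Slamf1 and Slamf7 2 each. Over all windows the median was 1, and 17.6% held 3 or more. The form CAGCTG was present in Slamf1 and Slamf7 and in 16.3% of all windows. These matches describe letters only, and binding was not measured.

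As a check on the genotypes, Id3 had an intensity of 65.4 and 63.4 on the Id3KO stage 1 arrays, against 1289 and 1282 on the WT stage 1 arrays, and of 67.3, 69.8 and 54.2 on the Id3KO stage 2 arrays, against 1065, 831 and 818 on the WT stage 2 arrays. Arrays of a group correlated at 0.975 to 0.989. All 6 listed T cell and iNKT cell markers were bright enough to be tested, and 1 of them, Thy1, was lower in Id3KO cells at stage 2 (log2 -1.39). The thymocyte markers Rag1, Rag2, Ptcra and Cd8b1, the B cell marker Ms4a1, the NK cell marker Ncr1 and the myeloid markers Itgax and Adgre1 were not. The sort marker Cd44 stood 1.25 ± 0.36 higher (log2, SE) at stage 2 than at stage 1 in Id3KO cells, and 2.07 ± 0.36 higher in WT cells, and neither passed (limma adjusted p = 1.00 and 0.134). At stage 2 Cd44 stood at -0.82 ± 0.33 in Id3KO against WT cells (log2, SE, limma adjusted p = 0.241), with every Id3KO array below every WT array. The part of this in the stage 2 comparisons was not tested. Klrb1c, which encodes NK1.1, has no probe set of its own in the annotation.

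Slamf6, also called Ly108, was the member that rose without Id3. It is a receptor that binds itself, and with SLAMF1 it is the family member tied most closely to iNKT selection in mice. It has 3 probe sets. On 1425086_a_at, whose suffix marks probes shared by several transcripts of the gene, the intensity was 372 and 353 on the Id3KO stage 1 arrays, against 247 and 261 on the WT stage 1 arrays. At stage 2 it was 321, 332 and 359 on the Id3KO arrays, against 222, 219 and 213 on the WT arrays. All 5 Id3KO arrays lay above all 5 WT arrays, as they did for 3.1% of all tested probe sets, while 3.75% lay the other way.

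The difference on 1425086_a_at was 1.43-fold at stage 1 (log2 0.51 ± 0.09, SE, limma adjusted p = 0.0376) and 1.54-fold at stage 2 (log2 0.63 ± 0.07, SE, limma adjusted p = 0.00220). Averaged over the stages it was 1.48-fold (log2 0.57 ± 0.06, SE, limma adjusted p = 0.000808), where its p ranked 112 among 25061 probe sets. The stage 2 and averaged calls passed without each array in turn. The stage 1 call passed without Id3KO replicate 3 of stage 2 and was lost without each of the other 9 arrays (limma adjusted p up to 0.261), with log2 values of 0.47 to 0.56.

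The probe set 1420659_at gave a larger fold change. Its intensity was 296 and 268 on the Id3KO stage 1 arrays, against 155 and 106 on the WT stage 1 arrays. At stage 2 it was 249, 266 and 214 on the Id3KO arrays, against 109.8, 118 and 155 on the WT arrays. Again no Id3KO array fell among the WT arrays, and the lowest Id3KO array, at 214, was above the highest WT array, at 155. The difference was 2.05-fold averaged over the stages (log2 1.04 ± 0.14, SE, limma adjusted p = 0.00337), with a 95% interval of 0.73 to 1.35. The interval of 1425086_a_at was 0.44 to 0.70, so the intervals of these probe sets do not overlap.

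By stage, 1420659_at passed at stage 2 (log2 0.94 ± 0.17, SE, limma adjusted p = 0.0208) and not at stage 1 (log2 1.14 ± 0.21, SE, limma adjusted p = 0.0568). The stage 2 call was lost without WT replicate 1 or 2 or Id3KO replicate 1 or 2 of stage 2 (limma adjusted p up to 0.0768). The averaged call passed without each array in turn.

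The last probe set, 1457773_at, had groups that overlapped or nearly met. Its intensity was 157 and 99.2 on the Id3KO stage 1 arrays, against 85.2 and 101 on the WT stage 1 arrays, and 116.12, 157 and 151 on the Id3KO stage 2 arrays, against 115.86, 84.4 and 77.3 on the WT stage 2 arrays. At stage 1 the genotypes overlapped, and at stage 2 the lowest Id3KO array and the highest WT array were almost equal. It stood at 0.52 ± 0.17 (log2, SE) averaged over the stages and did not pass (limma adjusted p = 0.136). By stage it stood at 0.43 ± 0.26 at stage 1 and 0.62 ± 0.21 at stage 2 (log2, SE). Neither passed (limma adjusted p = 0.649 and 0.165).

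**Figure D1:**
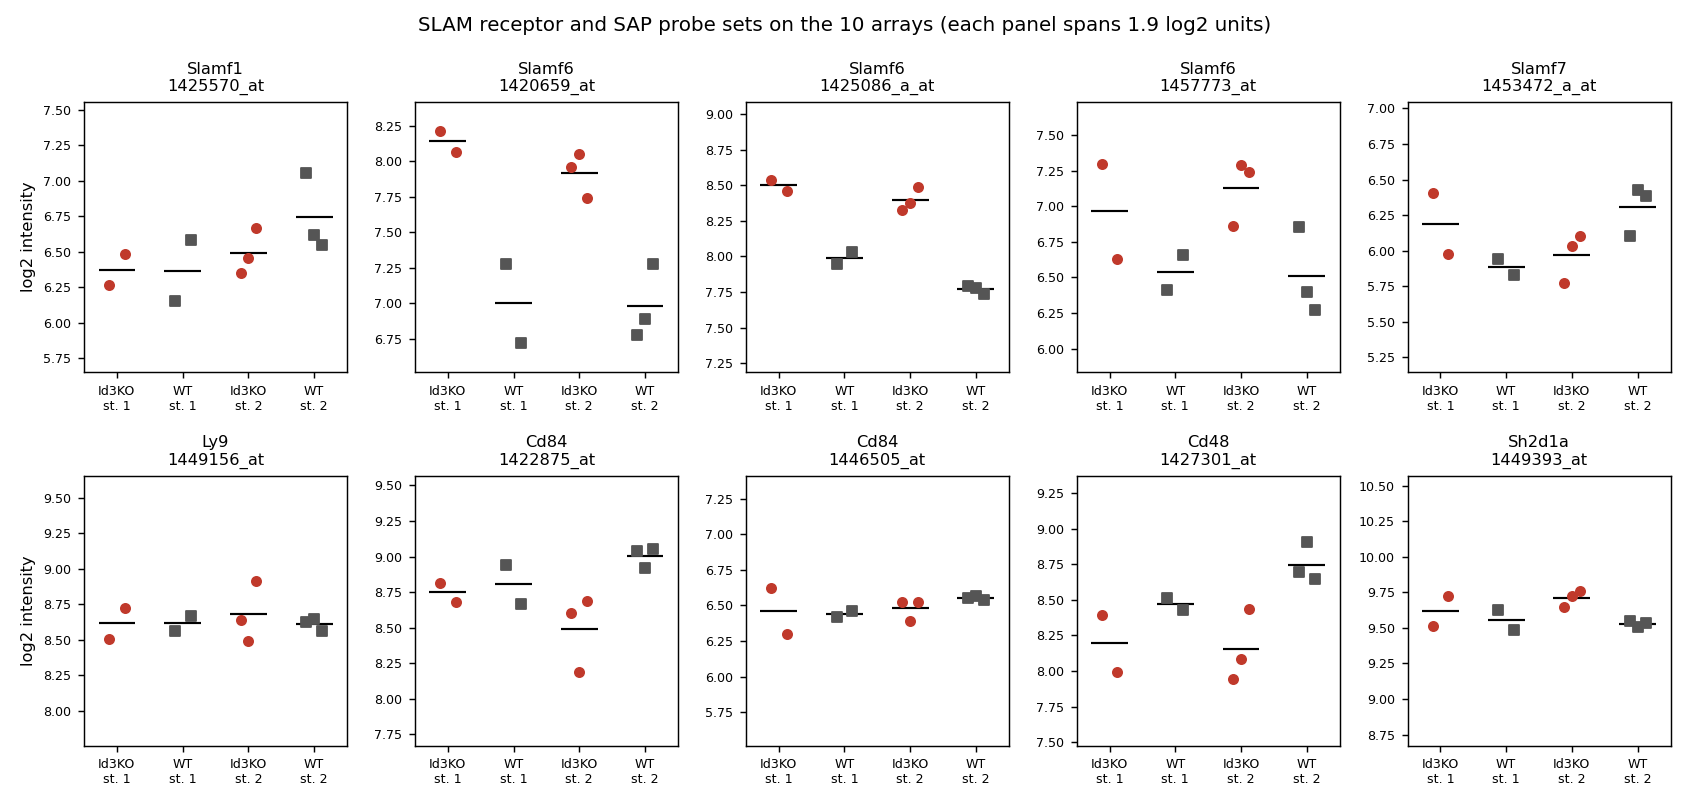
Log2 intensity of the 10 tested SLAM and SAP probe sets on each array. Circles are Id3KO arrays, squares WT arrays and lines group means, with 2 arrays per group at stage 1 and 3 at stage 2; for Slamf6 1425086_a_at and 1420659_at every Id3KO array lies above every WT array, and for Cd48 every stage 2 Id3KO array lies below every stage 2 WT array.

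In all, 1 of the 10 member probe sets was called higher in Id3KO cells at stage 1, where 0.459% of all tested probe sets were called higher and 0.343% lower. At stage 2 there were 2 of 10, against 1.82% higher and 2.39% lower over the whole array. Averaged over the stages there were again 2 of 10, against 2.18% higher and 2.79% lower. All of these calls are of Slamf6, and 0 members were called lower by limma in any of these comparisons. At an unadjusted p under 0.05 there were 2, 6 and 5 member probe sets at stage 1, at stage 2 and averaged, where the whole array had 10.5%, 16.9% and 16.8%. The median of the 10 was 0.04, 0.00 and 0.01 on the log2 scale, and that of all probe sets -0.01, 0.01 and 0.00.

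Cd48 encodes a receptor anchored to the membrane by a lipid, the partner of CD244 and, in mice, also of CD2. Its intensity was 337 and 254 on the Id3KO stage 1 arrays, against 366 and 344 on the WT stage 1 arrays. At stage 2 it was 246, 271 and 346 on the Id3KO arrays, against 415, 479 and 399.95 on the WT arrays. The genotypes did not overlap within either stage, but the Id3KO array at 346 stood just above a WT stage 1 array at 344. Groups this small can separate by chance. No share of all tested probe sets is given for separation within a stage, so it is only described, here and for the other genes.

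At stage 2 Cd48 stood at -0.59 ± 0.15 (log2, SE, 95% interval -0.94 to -0.25) and did not pass over the whole array (limma adjusted p = 0.0670). It passed with array weights (0.0309), in a test of 1 probe set per gene (0.0445) and when Id3KO replicate 3 of stage 2 was left out (0.0291), and over all settings tried its limma adjusted p ran from 0.0291 to 0.191. At stage 1 it stood at -0.28 ± 0.18 (log2, SE, limma adjusted p = 0.689).

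Cd84 encodes a receptor that binds itself and has been tied, in mice, to the contacts of T cells with B cells. Its probe set 1422875_at had an intensity of 450.4 and 411 on the Id3KO stage 1 arrays, against 491 and 407 on the WT stage 1 arrays. The stage 2 values were 389, 292 and 412 on the Id3KO arrays, against 525, 484 and 530.45 on the WT arrays. The genotypes overlapped at stage 1 and were apart at stage 2, where Id3KO replicate 2 was the lowest of all 10 arrays.

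At stage 2 this probe set stood at -0.51 ± 0.14 (log2, SE, 95% interval -0.82 to -0.20) and did not pass (limma adjusted p = 0.0800, with a range of 0.0408 to 0.217 under alternatives). At stage 1 it stood at -0.06 ± 0.17 (log2, SE). The other probe set, 1446505_at, lay between 78.8 and 98.8 on the Id3KO arrays and between 85.6 and 94.7 on the WT arrays, and it stood at -0.07 ± 0.09 (log2, SE, 95% interval -0.28 to 0.14) at stage 2, where its Id3KO arrays were also below its WT arrays.

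Sh2d1a encodes SAP, the adaptor that most of these receptors share. Its intensity was 730.5 and 845 on the Id3KO stage 1 arrays, against 791 and 715 on the WT stage 1 arrays. The stage 2 values were 803, 844 and 867 on the Id3KO arrays, against 750.5, 727 and 740.2 on the WT arrays. The groups overlapped at stage 1 and not at stage 2.

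The difference in Sh2d1a was 0.18 ± 0.08 (log2, SE) at stage 2, which did not pass (limma adjusted p = 0.298), and averaged over the stages it was 0.12 with a 95% interval of -0.02 to 0.27. By stage the intervals were -0.16 to 0.29 at stage 1 and -0.00068 to 0.36 at stage 2, so a modest difference at stage 2 lies within the interval.

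Ly9 encodes CD229, a receptor that binds itself and that restrains the number of iNKT cells in mice. Its intensity was 364 and 423 on the Id3KO stage 1 arrays, against 379 and 406 on the WT stage 1 arrays. In stage 2 cells it was 399, 361 and 483 on the Id3KO arrays, against 394, 402 and 378 on the WT arrays. The groups overlapped at each stage, with Id3KO arrays at both ends of the range. The averaged difference was 0.04 ± 0.09 (log2, SE, 95% interval -0.17 to 0.24, limma adjusted p = 0.910).

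Slamf1 encodes CD150, the founding receptor of the family. Only 1 of its 3 probe sets, 1425570_at, was tested. It had an intensity of 76.9 and 89.4 on the Id3KO stage 1 arrays, against 71.2 and 95.7 on the WT stage 1 arrays, and of 81.8, 88.0 and 102 on the Id3KO stage 2 arrays, against 133, 98.2 and 93.8 on the WT stage 2 arrays. WT replicate 1 of stage 2 was the highest array, and the groups overlapped at each stage. The averaged difference was -0.12 ± 0.13 (log2, SE, 95% interval -0.42 to 0.18, limma adjusted p = 0.747). The other probe sets of Slamf1 lay between 37.4 and 59.8 on the 10 arrays, and those of Cd244a, which encodes the receptor 2B4 of NK cells and cytotoxic T cells, between 34.3 and 50.8. At most 1 array of each of these 4 probe sets was above the level for testing, so no difference is given for them.

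Slamf7, also called CRACC, binds itself and signals in NK cells through EAT-2, a relative of SAP. Its intensity was 84.6 and 63.1 on the Id3KO stage 1 arrays, against 61.5 and 56.85 on the WT stage 1 arrays. At stage 2 it was 54.5, 65.5 and 68.85 on the Id3KO arrays, against 68.82, 85.8 and 83.5 on the WT arrays. The Id3KO arrays were thus the higher ones at stage 1 and, but for the pair at 68.85 and 68.82, the lower ones at stage 2. Slamf7 stood at -0.33 ± 0.14 at stage 2 and 0.31 ± 0.17 at stage 1 (log2, SE), and neither passed (limma adjusted p = 0.272 and 0.619). The stage 2 effect minus the stage 1 effect was -0.64 ± 0.22 (log2, SE), which did not pass either (limma adjusted p = 0.674). Of the 3 listed NK cell markers, Ncr1 was below the level for testing. Eomes and Klrd1 both had positive values at stage 1 and had opposite signs at stage 2. Eomes stood at 0.61 ± 0.24 at stage 2 and 1.33 ± 0.29 at stage 1 (log2, SE, limma adjusted p = 0.221 and 0.0929). Averaged over the stages, Eomes was the 1 NK cell marker called higher by limma, and 0 were called lower. Klrd1 was lower at stage 2, at -1.04 ± 0.22, and stood at 0.52 ± 0.27 at stage 1 (log2, SE, limma adjusted p = 0.0379 and 0.583). Their summed intensity with Ncr1 was 287 to 417 on the Id3KO stage 1 arrays, against 202 to 236 on the WT stage 1 arrays, and 244 to 354 on the Id3KO stage 2 arrays, against 394 to 574 on the WT stage 2 arrays. Their part in the Slamf7 values was not tested.

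**Figure D2:**
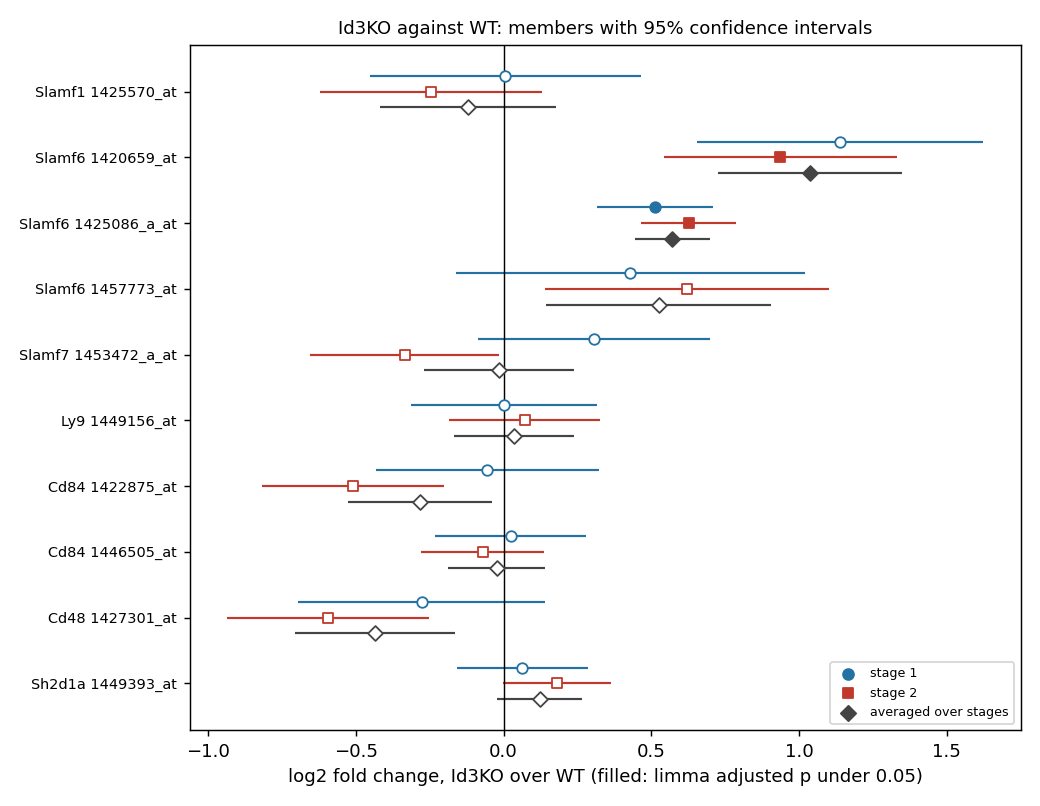
Log2 fold change of Id3KO over WT for each tested member probe set at stage 1, at stage 2 and averaged over the stages, with 95% confidence intervals from limma; filled symbols passed an adjusted p of 0.05. The filled symbols are all Slamf6, and the intervals of Cd48, Cd84 1422875_at and Slamf7 lie below 0 at stage 2.

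Between stage 2 and stage 1 no member passed the test. By limma 0 of the 10 were called in Id3KO cells, where 0% of all tested probe sets were called, and 0 in WT cells, where 0.016% were. At an unadjusted p under 0.05 there were 0 in Id3KO cells and 2 in WT cells, against 4.51% and 8.06% of the whole array. The 2 were Slamf7 and Slamf6 1425086_a_at. Slamf7 stood at -0.22 ± 0.16 in Id3KO cells, against 0.42 ± 0.16 in WT cells (log2, SE, limma adjusted p = 1.00 and 0.562). Slamf6 1425086_a_at stood at -0.11 ± 0.08 in Id3KO cells, against -0.22 ± 0.08 in WT cells (log2, SE, limma adjusted p = 1.00 and 0.543). For Slamf7 the 3 WT stage 2 arrays lay above both WT stage 1 arrays, and for Slamf6 they lay below.

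The interaction asks whether the genotype effect differs between stages. It was called for 0 of the 10 by limma, as for 0% of all tested probe sets. At an unadjusted p under 0.05 there was 1, Slamf7, where the whole array had 7.07%. For Slamf6 the interaction was 0.11 ± 0.11 on 1425086_a_at and -0.20 ± 0.27 on 1420659_at (log2, SE). For Cd48 it was -0.32 ± 0.24 and for Cd84 1422875_at -0.45 ± 0.21 (log2, SE). The stage 2 differences of Cd48 and Cd84 were thus not shown to be larger than those at stage 1.

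Ordered by group mean, Slamf6 1425086_a_at was brightest in Id3KO stage 1 cells (362 ± 13.7, SD, n = 2), followed by Id3KO stage 2 (337 ± 19.4, n = 3), WT stage 1 (254 ± 10.4, n = 2) and WT stage 2 (218 ± 4.61, n = 3). Stage neighbours within a genotype did not pass the test, and the step between Id3KO stage 2 and WT stage 1, whose arrays did not overlap, was not tested. In ascending order, Cd48 ran through Id3KO stage 2 (288 ± 52.1, SD, n = 3), Id3KO stage 1 (296 ± 58.4, n = 2), WT stage 1 (355 ± 15.8, n = 2) and WT stage 2 (431 ± 42.3, n = 3), and no neighbours in that order passed.

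**Figure D3:**
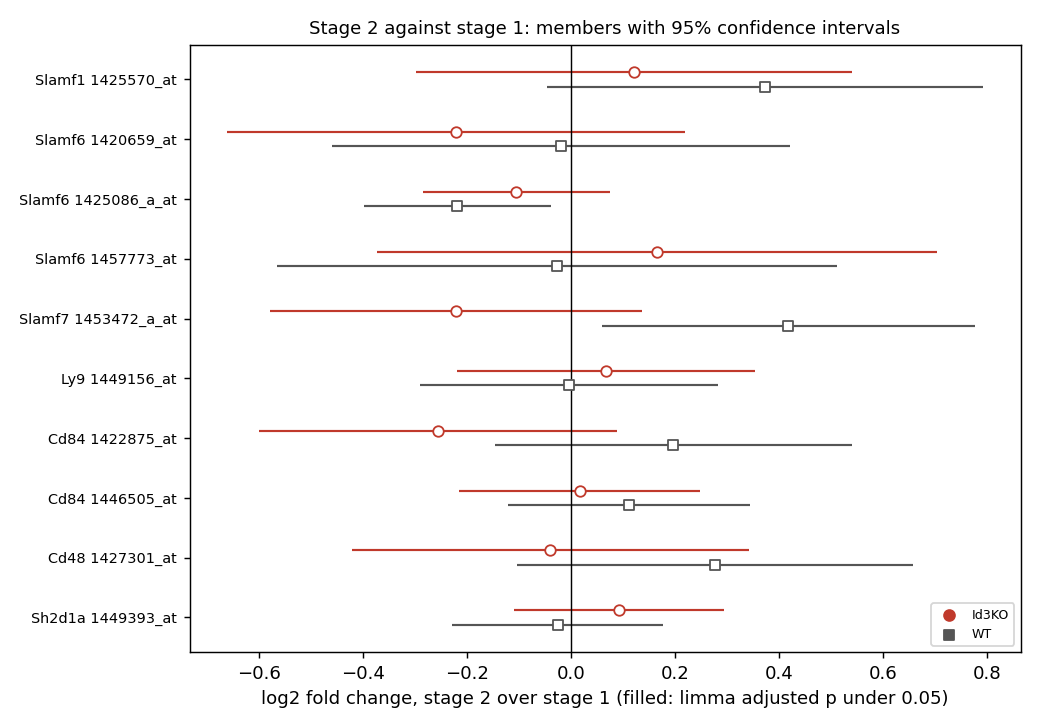
Log2 fold change of stage 2 over stage 1 for each tested member probe set in Id3KO cells (circles) and WT cells (squares), with 95% confidence intervals from limma. No symbol is filled, since no member passed an adjusted p of 0.05, and the intervals of the genotypes overlap for every probe set.

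Across the 10 arrays the log2 intensities of Slamf6 1425086_a_at correlated at 0.87 with 1420659_at and at 0.77 with 1457773_at (Pearson's r). The correlation of 1425086_a_at was -0.75 with Cd48, -0.65 with Cd84 1422875_at and 0.61 with Sh2d1a, and that of Cd48 with Cd84 1422875_at was 0.73. These describe 10 arrays that share their genotype and stage in groups, and are not independent of the genotype differences above. The genes whose pattern over the 10 arrays was most like that of Slamf6 1425086_a_at were Nos1 (r = 0.975), Dtx2 (0.972) and Prmt7 (0.969).

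The partners of the SLAM receptors were described through a list of 21 genes, of which 15 had a tested probe set of their own. Cd2, an adhesion receptor and, in mice, a ligand of CD48, was the partner that rose. Its intensity was 1117 and 1199 on the Id3KO stage 1 arrays, against 587 and 471 on the WT stage 1 arrays, and 1046, 893 and 1044 on the Id3KO stage 2 arrays, against 385, 502 and 559.85 on the WT stage 2 arrays. No Id3KO array overlapped the WT arrays. The averaged difference was 2.14-fold (log2 1.10 ± 0.12, SE, limma adjusted p = 0.00117), and it passed without each array in turn. By stage it passed at stage 1 (limma adjusted p = 0.0306) and at stage 2 (0.00610). The stage 1 call held without 5 of the 10 arrays, with a limma adjusted p of up to 0.169, and the stage 2 call held without each.

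Dok2, an adaptor that dampens kinase signals, fell by 0.26 on the log2 scale averaged over the stages (± 0.06, SE, limma adjusted p = 0.0312). That call held without 2 of the 10 arrays, WT replicate 1 and Id3KO replicate 1 of stage 2, and was lost without each of the others (limma adjusted p up to 0.107). The intensity of Dok2 was 229 and 218 on the Id3KO stage 1 arrays, against 268 and 267 on the WT stage 1 arrays, and 224, 197 and 214 on the Id3KO stage 2 arrays, against 249, 260 and 254 on the WT stage 2 arrays. Each Id3KO array was below each WT array.

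The remaining 13 partners did not pass. Fyn, the kinase that SAP recruits, stood at -0.02 ± 0.07 averaged over the stages (log2, SE, limma adjusted p = 0.936), with an interval of -0.17 to 0.13, and its other probe set at -0.07. Prkcq, the protein kinase C theta that acts downstream of SAP and Fyn, stood at -0.10 ± 0.07 (limma adjusted p = 0.513). Zbtb16, which encodes the iNKT factor PLZF, stood at -0.06 ± 0.08 (limma adjusted p = 0.801), and its other probe sets at -0.08 and 0.21. These averages join opposite signs. In the same order, the probe sets of Zbtb16 stood at -0.21, -0.22 and -0.11 at stage 1, and at 0.08, 0.06 and 0.52 at stage 2. None passed at either stage (lowest limma adjusted p = 0.133) or in the interaction (0.681 to 0.753). For Malt1, part of the signalling complex with BCL10, the probe set chosen to stand for the gene was at 0.20 (limma adjusted p = 0.460) and another, 1445068_at, rose by 0.48 ± 0.07 (SE, limma adjusted p = 0.00391), while the third, 1456126_at, was at 0.28 (limma adjusted p = 0.0715). All 3 of these averages were positive, with overlapping intervals. By stage, 1445068_at rose at stage 1 (log2 0.72, limma adjusted p = 0.0193) and did not pass at stage 2 (log2 0.25, limma adjusted p = 0.163). The chosen probe set, 1456429_at, had opposite signs, at 0.49 at stage 1 and -0.10 at stage 2 (log2). The third stood at 0.24 at stage 1 and 0.32 at stage 2 (log2), and neither of these probe sets passed at either stage. Malt1 was named after its values were seen. In counts, 1 partner rose and 0 fell by limma at each stage, and 1 rose and 1 fell averaged over the stages. At an unadjusted p under 0.05 there were 2 higher and 1 lower at stage 1, and 2 higher and 3 lower at stage 2. Of all tested probe sets, 10.5% and 16.9% were under that level in either direction. With 1 probe set per gene, 1.05% of all genes were called in either direction at stage 1, 5.58% at stage 2 and 6.72% averaged. The median of the 15 was 0.13, 0.02 and 0.08 on the log2 scale at stage 1, at stage 2 and averaged, against -0.02, 0.01 and -0.01 for the 11951 genes tested.

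**Figure D4:**
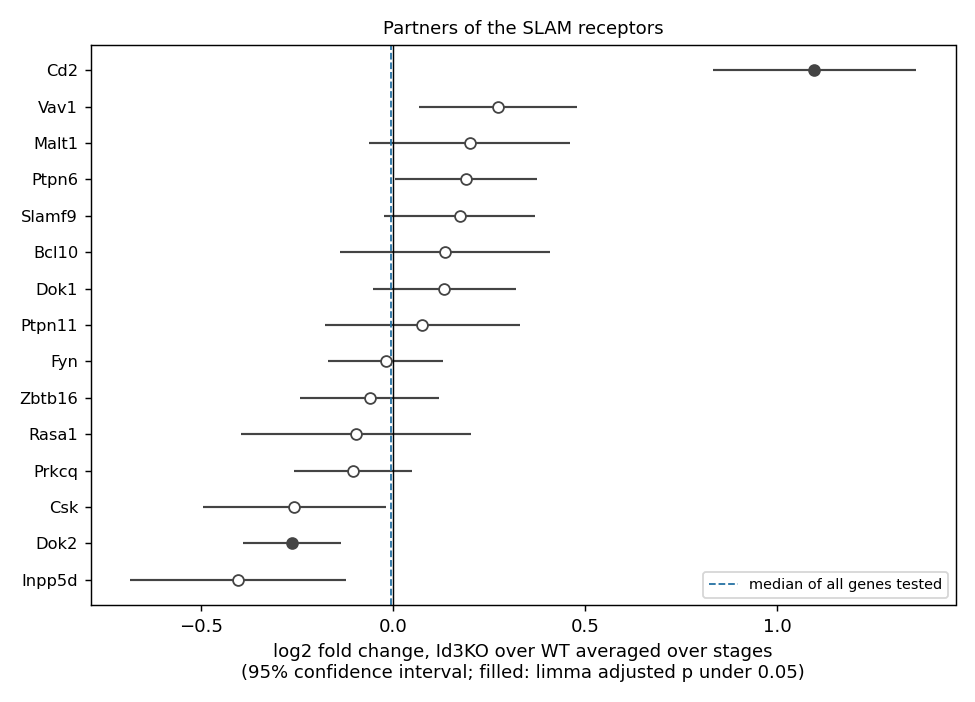
Log2 fold change of Id3KO over WT averaged over the stages for the 15 tested partners of the SLAM receptors, with 95% confidence intervals from limma; filled points passed an adjusted p of 0.05 and the dashed line is the median of all genes tested. Cd2 lies at 1.10, Dok2 at -0.26 and Fyn near 0.

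In sorted populations, fewer cells of a type and less RNA per cell cannot be told apart, and markers of iNKT subsets moved with genotype at stage 2. All 4 tested markers of NKT17 cells, an iNKT subset named for its cytokine, were lower in Id3KO stage 2 cells, with a summed intensity of 263 to 356 on the Id3KO arrays, against 1497 to 2410 on the WT arrays. All 4 of NKT1 cells, the interferon gamma subset, were lower too, at 647 to 952 on the Id3KO arrays, against 2191 to 2576 on the WT arrays. Of the 4 NKT2 markers, 1 was lower, at 2712 to 3043 on the Id3KO arrays, against 3138 to 3242 on the WT arrays. At stage 1, 0 of the 4 NKT17 markers and 0 of the 4 NKT1 markers were called by limma (0 and 2 at an unadjusted p under 0.05). Their sums there were 297 to 332 and 656 to 875 on the Id3KO arrays, against 339 to 559 and 1266 to 1296 on the WT arrays. Of the 4 NKT2 markers, 1 was lower at stage 1 as well, Il13 (log2 -0.98, limma adjusted p = 0.0240), with 2 at an unadjusted p under 0.05 and sums of 2696 to 2716 on the Id3KO arrays, against 2833 to 3335 on the WT arrays. The part of these shifts in the SLAM values was not tested.

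Double-positive thymocytes, which select iNKT cells, carry SLAMF1 and SLAMF6 themselves. Of their 6 listed markers, 2 could be tested. Cd1d1 was lower at stage 2 (log2 -0.78, limma adjusted p = 0.0436), and Cd8a stood at -0.04 ± 0.09 there (log2, SE, limma adjusted p = 0.893). The summed intensity of the 6 was 676 to 696 on the Id3KO stage 1 arrays, against 809 to 817 on the WT stage 1 arrays, and 485 to 643 on the Id3KO stage 2 arrays, against 731 to 816 on the WT stage 2 arrays. The lower sums rest on Cd1d1 among the tested markers.

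B cell markers, of which Ms4a1 was below the level for testing, had sums of 201 to 214 on the Id3KO stage 1 arrays, against 209 to 224 on the WT stage 1 arrays, and of 199 to 211 on the Id3KO stage 2 arrays, against 207 to 240 on the WT stage 2 arrays. By limma 0 of the 3 tested ones were called at stage 1, at stage 2 or averaged, and 0, 1 and 1 had an unadjusted p under 0.05. The 1 was Cd79b, at -0.46 ± 0.13 at stage 2 (log2, SE, limma adjusted p = 0.0914), with its Id3KO arrays below its WT arrays. Myeloid and dendritic cell markers had sums of 688 to 748 on the Id3KO stage 1 arrays, against 805 to 887 on the WT stage 1 arrays, and of 733 to 774 on the Id3KO stage 2 arrays, against 807 to 835 on the WT stage 2 arrays. By limma 0 of the 4 tested ones were called in these comparisons, and 1, Cst3, had an unadjusted p under 0.05 in each. Cst3 stood at -0.27 ± 0.07 averaged over the stages (log2, SE, limma adjusted p = 0.0519). The part of these markers in the SLAM values was not tested.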

How the data were processed

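RNA of sorted thymic iNKT cells was hybridised to Affymetrix mouse arrays, 1 per replicate. The deposited values are linear intensities, 1 per probe set and array, made with RMA per the submitters' processing notes; its version and the genome build are not given in the sources used here. RMA pulls the arrays to 1 distribution, so a shift shared by most probe sets cannot be seen. They were taken to log2 here, filtered as stated above, and fitted on all 10 arrays with 1 mean per group in limma 3.58.1 (R 4.3.3; lmFit, contrasts.fit, eBayes). Benjamini-Hochberg adjustment ran over 25061 probe sets in each of 6 contrasts, and a call is an adjusted p under 0.05. The number of arrays limits the precision, and intervals are 95% intervals of the fit. Statements that the genotypes were apart within a stage describe the arrays only. They have no whole-array share to be set against, and such small groups can separate by chance. Where several probe sets of a partner gene were tested, the one with the highest mean stood for the gene. Named genes were all members, Id3, partners called in a contrast, Fyn, Cd2, Prkcq and Zbtb16 whatever their values, and the 3 genes most like a called member over the arrays. The members and lists were chosen with earlier results of these data known. Promoters are RefSeq's, of build GRCm38.p6. The p-values set each difference against the spread between these samples. The labels do not say whether replicates are separate animals, so this may not be the spread between mice. The fit was tested on simulated data.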

Additional observations from a re-analysis of the deposited data

How the results depend on the processing

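No member or partner that was called changed direction under any of the 20 settings tried. At stage 2 Slamf6 1425086_a_at and Cd2 passed under all 20. Averaged over the stages, these probe sets passed under the 19 settings that fitted this contrast, and Slamf6 1420659_at passed under its 18. The averaged contrast was not fitted with only the arrays compared, and 1420659_at was not in the fit of 1 probe set per gene. At stage 1 the 1 member call became 0 with an intensity trend and robust prior, with only the arrays compared, and with the replicate block, and 2 with array weights. It ran from 0 to 1 without each replicate in turn. With a stricter filter it stayed at 1, but the probe set called was then 1420659_at (limma adjusted p = 0.0346). At stage 2 the 2 calls ran from 1 to 3 and averaged over the stages from 2 to 3 without each replicate, and the averaged count was 1 with 1 probe set per gene, which leaves 1 Slamf6 probe set to call. The partner call at stage 1 became 0 with no filter, with only the arrays compared and with the replicate block, and ran from 0 to 1 without each replicate. The 2 averaged partner calls became 1 with the trend and robust prior and with the replicate block, and ran from 1 to 2 without each replicate. No stage or interaction call of a member or partner appeared under any setting.

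The labels do not say whether the replicate numbers pair the arrays. Arrays with the same number were correlated on their deviations from the group means. Of 13 such pairs, 2 correlated above 0.1, over a range of -0.31 to 0.13. The pairs share arrays and are not independent, so these values cannot settle it. With the replicate block, Slamf6 1420659_at at stage 2 missed the threshold (limma adjusted p = 0.0512) and Cd84 1422875_at at stage 2 passed it (0.0408). Crossing the numbers of the Id3KO stage 1 arrays, an alternative chosen after seeing the data, gave 0 member calls at stage 1 and 1 partner call averaged over the stages. Over the whole array, the 201 calls at stage 1 became 99 with the replicate block, 169 with the numbers crossed and 28 with only the arrays compared. Without each array in turn they ran from 15, without WT replicate 1 of stage 1, to 234, without Id3KO replicate 2 of stage 2. The 1055 calls at stage 2 became 626 with only the arrays compared and ran from 504 to 883 without each array, and the 1245 averaged calls from 692 to 1209. With 2 arrays per group, stage 1 is the weaker comparison, and probe sets below the level for testing say nothing about Cd244a.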
